A study of Mus musculus with 4 samples.

Results

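The genes described here encode 7 fibril-forming collagen chains (Col1a1, Col1a2, Col3a1, Col5a1, Col5a2, Col5a3 and Col11a1) and 3 fibril-associated collagens (Col12a1, Col14a1 and Col16a1). They were taken by gene symbol from the array's own annotation, which gave 23 of the 41174 non-control probes, for 10 of the 27370 gene names on the array. The samples were C2C12 cells, an established line of mouse myoblasts whose cells fuse to multinucleated myotubes in low serum. All cultures were differentiated for 6 days in horse serum, whose concentration the labels give differently in different fields. The treated cultures received recombinant human follistatin 288, the shorter isoform of the protein, at 200 ng/ml every 24 h, and the control cultures were untreated. For each of 4 replicates, both RNAs were hybridised to 1 Agilent mouse array, with treated RNA in the Cy3 channel and untreated RNA in the Cy5 channel. The labels call the replicates biological but do not say what separated them, so errors and p-values measure the spread between these arrays.

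Fibril-forming collagens are secreted as procollagens, trimers of chains built on a repeat with glycine at its first place, and assemble outside the cell into banded fibrils once their propeptides have been removed. Type I and type III collagen make up most of the fibrils between muscle fibres, type V collagen starts fibrils and limits their diameter, and the fibril-associated collagens sit on fibril surfaces and link them to other matrix molecules. Genes of fibrillar collagens are well known targets of TGF-beta family signalling, and follistatin is a secreted protein that binds activins and myostatin and keeps these members of the family from their receptors. The comparison asked which transcripts differed between differentiating myoblasts with and without follistatin.

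Of the 23 collagen probes, 17 passed the filter for testing (a signal well above background, in 1 and the same channel, on 3 or more arrays), and each of the 10 genes had at least 1 of them. Ratios below are log2 of the follistatin over the untreated signal of the same array, in which 0 means equal signals, and the mean ratio was tested against 0 with limma over all 27017 probes that passed the filter. Most of these collagens had more signal with follistatin. In the brightest probe of each gene, the mean ratio was above 0 for 9 of 10 genes, from 0.10 for Col5a1 to 1.28 for Col14a1, and was -0.14 for Col11a1. None passed the test: 0 of the 17 tested collagen probes had a limma adjusted p under 0.05, where 0.0074% of all tested probes did (2 probes, for Olfr1299 and Ces3b, both lower). The unpaired test that the study's methods name, run on the separate channels, also passed 0 of the 17 after adjustment. At an unadjusted p under 0.05 it passed 7 of the 17, in either direction, against 5177 of all 27017 tested probes. At a limma unadjusted p under 0.05, 9 of the 17 collagen probes were higher, against 9.93% of all tested probes, and 0 were lower, against 10.8%. The same 7 genes, all but Col1a1, Col5a1 and Col11a1, held those 9 probes and also the 9 collagen probes that were higher on all 4 arrays, against 13.7% of all tested probes. Of the collagen probes, 0 were lower on all 4 arrays, against 14.5%. For 9 of the 17, every follistatin signal lay above every untreated signal, against 6.71%, and for 7 the mean ratio was over 1.6-fold higher, against 6.48%. Among these 7 was a faint Col12a1 probe that was well above background without follistatin on 3 arrays only. Several of these probes share a gene, and the difference between these shares and the background was not tested.

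All 4 arrays are called dye swaps, yet on each of them the treated RNA is listed in the Cy3 channel and the untreated RNA in Cy5. No array carried the reverse labelling, so every ratio mixes the treatment with any preference of that probe for 1 dye. Over all tested probes, replicates 2 and 3 had a correlation of r = 0.82 between their ratios, and the other 5 pairs lay between 0.04 and 0.32, so the independence of replicates 2 and 3 was not shown. These correlations run across probes, which are not independent replicates. The tests above counted replicates 2 and 3 as separate replicates. Replicates 1 to 3 shared slide 1 and replicate 4 was on slide 2. Between 60.8% and 69.1% of non-control probes were well above background in each channel, and 0 spots were saturated. The signals come from whole cultures, in which fewer cells of a type and less RNA per cell cannot be told apart. Their number, 4 arrays, limits the precision of every value.

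The 60-base probes read different stretches of the collagen transcripts, and the following coding-region probes show what was hybridised. In the type V probes the capitals mark the regularly spaced glycine codons of the triple helix, and in the type I and type III probes they mark the cysteine codons of the only open frame, near the start of the transcript, where these procollagens carry a cysteine-rich domain in the propeptide at the N-terminal end. Positions are in mm9, per the file headers. The Col5a1 probe lies at chr2:27842243-27844666 on the plus strand and the Col5a3 probe at chr9:20590066-20590795 on the minus strand, both spans being longer than the probe itself because they cross an intron. The Col3a1 probe lies at chr1:45378397-45378456 and the Col1a1 probe at chr11:94799277-94799336, both on the plus strand.
Col5a1 A_52_P237371: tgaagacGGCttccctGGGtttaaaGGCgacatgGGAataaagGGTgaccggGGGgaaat
Col5a3 A_52_P503796: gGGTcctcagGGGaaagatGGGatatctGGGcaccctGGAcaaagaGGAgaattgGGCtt
Col3a1 A_52_P684242: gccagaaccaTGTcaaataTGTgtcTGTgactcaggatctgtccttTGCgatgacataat
Col1a1 A_52_P658611: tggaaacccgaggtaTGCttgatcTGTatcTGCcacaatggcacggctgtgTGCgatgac
The Col5a1 probe holds 6 of these glycine codons and the Col5a3 probe 7. The Col3a1 and Col1a1 probes hold 4 cysteine codons each.

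Type I collagen is a trimer of chains encoded by Col1a1 and Col1a2, and the ratios of its genes differed in size. The brightest Col1a2 probe, at chr6:4490619-4490678 and starting at base 4218 of its record, had follistatin signals of 83168, 72958, 84443 and 125450 in replicates 1 to 4 (processed signal, arbitrary units). The untreated signals on the same arrays were 42853, 64152, 60015 and 53534. Every follistatin value was above every untreated value, and replicate 4 was the highest with follistatin. The log2 ratios were 0.96, 0.19, 0.49 and 1.23, with a mean of 0.72 ± 0.47 (SD, n = 4), or 1.64-fold, which did not pass the test (limma adjusted p = 0.162). For Col1a1, the probe at chr11:94813075-94813134, printed in 10 spots per array, gave 6071, 6744, 4601 and 8633 with follistatin and 3798, 6141, 5529 and 8529 without. The channels overlapped, and the follistatin signal was the lower one on replicate 3. The Col1a1 ratios were 0.68, 0.14, -0.27 and 0.02, with a mean of 0.14 ± 0.39 (SD, n = 4, limma adjusted p = 0.718). Without replicate 1 the mean was -0.04, so the sign of the Col1a1 ratio rests on that array.

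The other Col1a1 and Col1a2 probes were fainter. A coding-region Col1a1 probe starting at base 3909 had ratios of 1.25, -0.02, 0.28 and 0.67 (mean 0.54 ± 0.55, SD, n = 4, limma adjusted p = 0.264). Again replicate 1 was the highest of the 4. The Col1a1 probe near the start of the transcript, whose sequence is shown above, was well above background on 1 array with follistatin and on 2 without, and was not tested. A second Col1a2 probe, designed on a record outside RefSeq mRNA, had ratios of -0.76, 0.99, -0.44 and -1.37, a mean of -0.40 ± 1.00 (SD, n = 4, limma adjusted p = 0.563). It was opposite in sign to the brightest Col1a2 probe on replicates 1, 3 and 4, so the Col1a2 probes disagreed.

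Type III collagen, a trimer of the Col3a1 chain that is found with type I collagen in the connective tissue sheaths of muscle, gave the smallest spread between arrays among the 10 brightest probes. At chr1:45405589-45405648, starting at base 4601, the Col3a1 signal was 172120, 204720, 195030 and 189070 with follistatin and 145020, 133410, 129200 and 138710 without. The lowest follistatin value, on replicate 1, lay above the highest untreated value, from the same array. The ratios were 0.25, 0.62, 0.59 and 0.45, with a mean of 0.48 ± 0.17 (SD, n = 4), or 1.39-fold (limma adjusted p = 0.192). The Col3a1 probe over the cysteine codons, at base 350, had 461, 400, 428 and 609 with follistatin and 132, 302, 355 and 354 without. The channels did not overlap there either, and replicate 1 was the lowest array without follistatin. Its ratios were 1.80, 0.40, 0.27 and 0.78, a mean of 0.81 ± 0.69 (SD, n = 4, limma adjusted p = 0.185), so both probes of the RefSeq mRNA were higher on all 4 arrays. Another Col3a1 probe, on a record outside RefSeq mRNA, was at -0.60 ± 1.24 (SD, n = 4, limma adjusted p = 0.467), with 2 arrays on each side of 0.

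Type V collagen is built from the chains of Col5a1, Col5a2 and, in some tissues, Col5a3. Col5a1, whose chain is part of nearly all type V molecules, had follistatin signals of 33278, 25288, 30510 and 29534 and untreated signals of 25545, 31163, 29239 and 24601 at chr2:27892892-27892951. The channels overlapped, with replicate 2 lower under follistatin and the other 3 arrays higher. The mean ratio was 0.10 ± 0.30 (SD, n = 4, limma adjusted p = 0.779), and leaving out 1 array moved it between 0.01 (without replicate 1) and 0.24 (without replicate 2). The Col5a1 probe over the glycine repeat was at 0.06 ± 0.82 (SD, n = 4, limma adjusted p = 0.921), above 0 on replicates 1 and 4 and below 0 on replicates 2 and 3. For Col5a2, the probe at chr1:45433621-45433680 on the minus strand had 10548, 10684, 13054 and 9267 with follistatin and 6078, 7917, 7904 and 7397 without. These groups did not overlap. The Col5a2 ratios were 0.80, 0.43, 0.72 and 0.33, with a mean of 0.57 ± 0.23 (SD, n = 4), or 1.48-fold (limma adjusted p = 0.161). Col5a3 had 4931, 4853, 5689 and 5318 with follistatin against 2221, 3650, 3701 and 3111 without, at chr9:20574592-20574651 on the minus strand. Here too the groups were apart, and replicate 1 was the lowest array without follistatin. The Col5a3 ratios were 1.15, 0.41, 0.62 and 0.77, with a mean of 0.74 ± 0.31 (SD, n = 4), or 1.67-fold (limma adjusted p = 0.129). The Col5a3 probe over the glycine repeat was faint and at -0.04 ± 0.43 (SD, n = 4, limma adjusted p = 0.922), below 0 on 3 arrays, so the Col5a3 probes disagreed.

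Col11a1, whose chain belongs to the type XI collagen of cartilage, was the only gene of the 10 with a mean ratio below 0 in its brightest probe. At chr3:113922153-113922211 its signal was 210, 267, 237 and 231 with follistatin and 277, 286, 268 and 215 without. The channels overlapped. The Col11a1 ratios were -0.40, -0.10, -0.17 and 0.10, with a mean of -0.14 ± 0.21 (SD, n = 4, limma adjusted p = 0.657). This mean was -0.06 without replicate 1 and -0.22 without replicate 4. The other Col11a1 probes were well above background on 0 arrays in either channel.

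**Figure D1:**
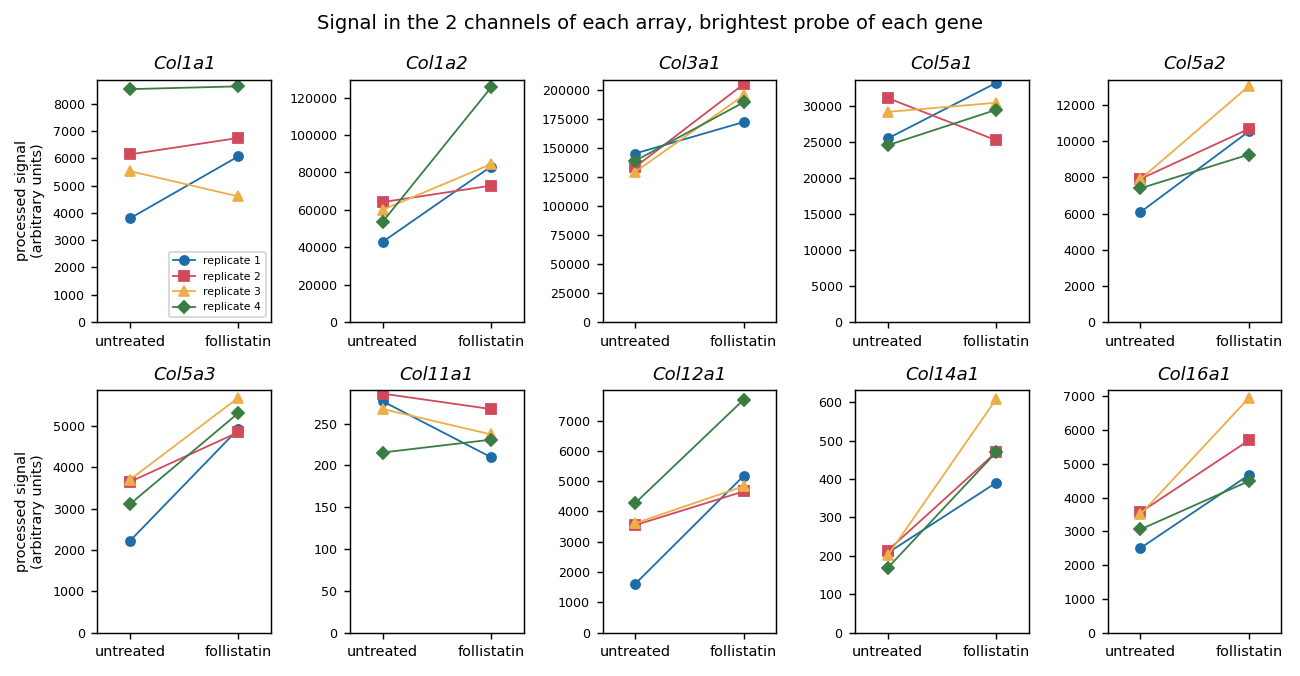
Processed signal (arbitrary units, linear axis from 0) of the brightest probe of each collagen gene in the untreated and the follistatin channel; each line joins the channels of 1 array. For Col1a2, Col3a1, Col5a2, Col5a3, Col12a1, Col14a1 and Col16a1 all 4 follistatin points lie above all 4 untreated points, while the points of Col1a1, Col5a1 and Col11a1 overlap between channels.

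Col14a1, whose product binds fibrils through decorin and is abundant in tendon and skin, had 391, 470, 608 and 470 with follistatin and 208, 214, 201 and 169 without, at chr15:55352132-55352191. The groups were far apart, and replicate 3 was the highest array with follistatin. The Col14a1 ratios were 0.91, 1.13, 1.60 and 1.48, with a mean of 1.28 ± 0.31 (SD, n = 4), or 2.43-fold, at a limma unadjusted p of 0.000348 and an adjusted p of 0.102. With normexp background correction and loess normalisation of the median signals, the Col14a1 mean was 0.80 (limma adjusted p = 0.0991). A second Col14a1 probe, at base 628, was well above background on 0 arrays.

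Col12a1 encodes the type XII collagen of tendon, ligament and the sheaths of muscle, and in humans changes in this gene cause a myopathy with loose joints. Its brightest probe, at chr9:79447270-79447329 on the minus strand, had 5176, 4662, 4834 and 7688 with follistatin and 1610, 3550, 3610 and 4274 without. Every follistatin value was above every untreated value, with replicate 1 lowest without follistatin and replicate 4 highest in both channels. The ratios were 1.68, 0.39, 0.42 and 0.85, with a mean of 0.84 ± 0.60 (SD, n = 4), or 1.79-fold (limma adjusted p = 0.159), and 0.55 without replicate 1. A fainter Col12a1 probe, at chr9:79452328-79452387, had 175, 261, 321 and 174 with follistatin and 32.6, 65.8, 64.6 and 108 without, where it was well above background on 3 of 4 arrays. Its ratios were 2.43, 1.99, 2.31 and 0.69, a mean of 1.85 ± 0.80 (SD, n = 4, limma unadjusted p = 0.000696, adjusted p = 0.102). Because 1 of the untreated signals was not well above background, no fold is given for this probe, though it is in the count of those over 1.6-fold. Another Col12a1 probe, on a record outside RefSeq mRNA, was well above background on 0 arrays.

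Col16a1 encodes type XVI collagen, a minor collagen that binds integrins and is found in skin and cartilage. At chr4:129776345-129776404 it had 4673, 5699, 6954 and 4492 with follistatin and 2507, 3567, 3504 and 3060 without. The groups did not overlap, and replicate 3 was highest with follistatin. The Col16a1 ratios were 0.90, 0.68, 0.99 and 0.55, with a mean of 0.78 ± 0.20 (SD, n = 4), or 1.72-fold (limma unadjusted p = 0.00314, adjusted p = 0.111). A second Col16a1 probe, at base 1124, was well above background on 0 arrays and was not tested.

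**Figure D2:**
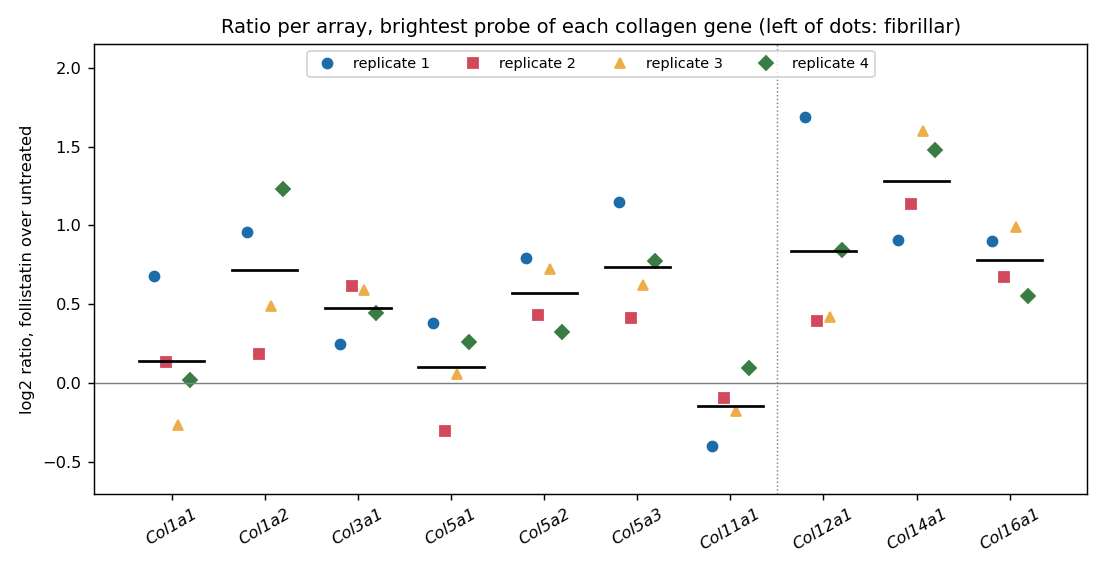
Log2 ratio of follistatin over untreated signal on each of the 4 arrays (symbols) for the brightest probe of each gene, with the mean as a bar. The 3 fibril-associated genes right of the dotted line and Col1a2, Col3a1, Col5a2 and Col5a3 lie above 0 on all 4 arrays; Col1a1, Col5a1 and Col11a1 lie on both sides of 0.

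Over the 10 brightest probes, the median ratio was 0.85, 0.40, 0.54 and 0.50 on replicates 1 to 4, a mean of 0.57 ± 0.19 (SD, n = 4). Over all 27017 tested probes these medians were -0.02, 0.02, 0.03 and -0.01, and over the brightest probes of all 17836 gene names they were -0.06, -0.02, -0.02 and 0.01. The 7 fibril-forming genes had medians of 0.68, 0.19, 0.49 and 0.33, and the 3 fibril-associated genes 0.91, 0.68, 0.99 and 0.85, higher on each of the 4 arrays, a difference that was not tested. The median of the 10 mean ratios was 0.64, where it was 0.01 over all tested probes. On slide 1 alone, without replicate 4, it was 0.60, and replicate 4 is the whole of slide 2. It was 0.35 where all tested probes of a gene were averaged, and several of the fainter probes had ratios near or below 0.

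Within a collagen type, chains were compared on the same arrays by the difference of their ratios, over 3 pairs chosen because they share a trimer. Col1a2 stood above Col1a1 by 0.28, 0.05, 0.76 and 1.21 on the 4 arrays, a mean of 0.57 ± 0.52 (SD, n = 4). Col5a2 stood above Col5a1 by 0.41, 0.73, 0.66 and 0.06, a mean of 0.47 ± 0.30 (SD, n = 4). Col5a3 stood above Col5a1 by 0.77, 0.71, 0.56 and 0.51, a mean of 0.64 ± 0.12 (SD, n = 4). Each difference was positive on 4 of 4 arrays. An exact two-sided sign-flip permutation test over 4 arrays gave p = 0.125 for each of the 3 pairs, also after Benjamini-Hochberg adjustment, and 0.125 is the smallest p that this design allows.

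Probes of 1 gene differed along the transcript. The Col12a1 probes at bases 9042 and 11127 were at 1.85 and 0.84, and the Col3a1 probes at bases 350 and 4601 were at 0.81 and 0.48. In both genes the probe nearer the start of the transcript had the higher mean. In Col5a3 the order was the opposite, with -0.04 at base 2735 and 0.74 at base 5928. The Col5a1 probes at bases 2823 and 6263 lay close together, at 0.06 and 0.10, and the Col1a1 probes at bases 3909 and 4602 were at 0.54 and 0.14. The higher mean was nearer the start in 3 of these 5 genes and nearer the end in the others. In all 5 the probe nearer the start was the fainter one, so position and brightness cannot be told apart.

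**Figure D3:**
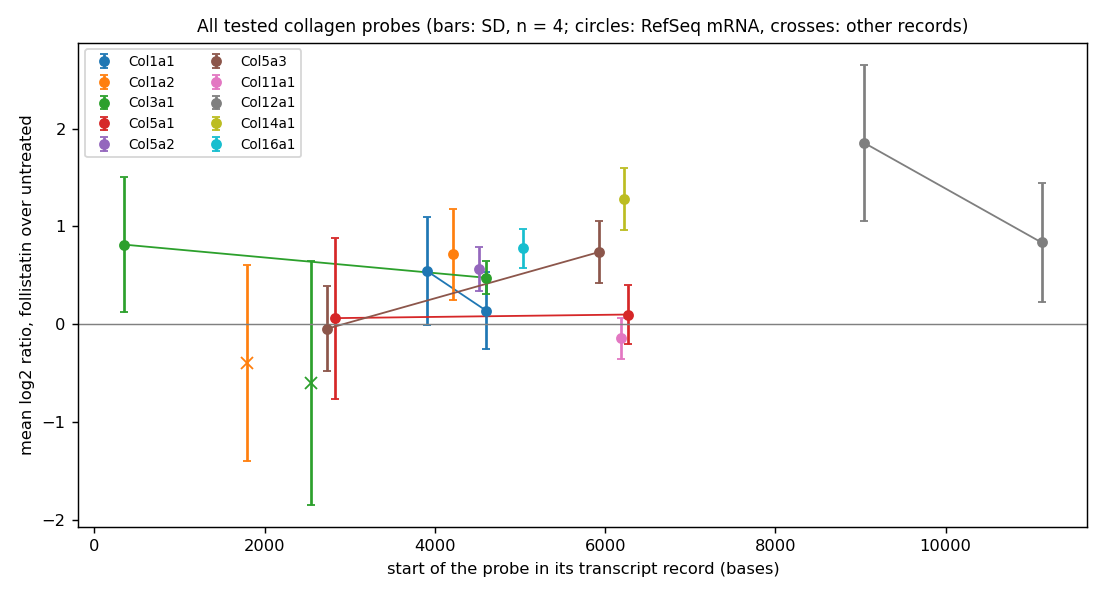
Mean log2 ratio of each tested collagen probe (points; bars, SD over 4 arrays) against the position of its first base in its transcript record. Lines join probes of 1 gene on a RefSeq mRNA, and crosses are probes on other records, both of which lie below 0.

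The promoters of 6 of the 10 genes were available in RefSeq sequence of build GRCm38.p6, whose coordinates differ from those of the mm9 probes. They were searched on both strands for CAGAC, read as GTCTG on the other strand, the letters that Smad3 and Smad4 bind as part of TGF-beta family signalling, and for CCAAT, read as ATTGG on the other strand, the box through which NF-Y acts on the Col1a2 promoter. CAGAC was present in 4 of the 6 (Col1a2, Col3a1, Col5a1 and Col11a1), and 49.6% of all 32851 promoters of the same 300-base length held it. CCAAT was present in 4 of the 6 (Col1a2, Col5a3, Col11a1 and Col16a1), and 37.4% of all promoters held it. A match is a description of letters and not a binding site. The promoters of Col1a2 and Col16a1, with ratios of 0.72 and 0.78, and of Col11a1, with a ratio of -0.14, are shown because they stand on both sides of 0; capitals mark both motifs. They lie at chr6:4505368-4505667, chr4:130047590-130047889 and chr3:114030290-114030589, all on the plus strand.
Col1a2: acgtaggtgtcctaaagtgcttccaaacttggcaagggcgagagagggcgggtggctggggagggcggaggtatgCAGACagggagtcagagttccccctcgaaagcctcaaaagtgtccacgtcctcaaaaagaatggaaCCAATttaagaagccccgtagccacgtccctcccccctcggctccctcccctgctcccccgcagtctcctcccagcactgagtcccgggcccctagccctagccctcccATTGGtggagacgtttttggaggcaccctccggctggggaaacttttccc
Col16a1: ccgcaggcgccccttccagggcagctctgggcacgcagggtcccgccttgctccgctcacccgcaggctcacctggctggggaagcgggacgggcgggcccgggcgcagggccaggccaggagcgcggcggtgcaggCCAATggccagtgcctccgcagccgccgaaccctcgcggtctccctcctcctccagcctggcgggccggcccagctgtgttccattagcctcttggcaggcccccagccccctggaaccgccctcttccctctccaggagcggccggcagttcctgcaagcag
Col11a1: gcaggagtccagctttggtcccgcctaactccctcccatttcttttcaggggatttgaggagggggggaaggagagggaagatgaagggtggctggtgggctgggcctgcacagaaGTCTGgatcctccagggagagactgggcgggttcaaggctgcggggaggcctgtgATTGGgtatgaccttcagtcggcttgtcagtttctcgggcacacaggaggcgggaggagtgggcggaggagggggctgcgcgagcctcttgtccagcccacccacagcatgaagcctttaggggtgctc
The Col11a1 promoter held CAGAC 1 time and CCAAT 1 time and the Col1a2 promoter held them 1 and 2 times, while in the Col16a1 promoter CCAAT occurred 1 time and CAGAC 0 times.

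Other genes of collagen biology, taken from lists chosen with earlier results of these data known, gave 0 genes past the limma adjusted threshold, and the counts at an unadjusted p under 0.05 that follow for each list stand beside 9.93% higher and 10.8% lower over all tested probes. Of the other fibrillar and fibril-associated collagens, 7 of 10 genes were tested, 2 with a mean ratio above 0 and 5 below, with a median of -0.19, against 0.64 for the 10 genes above. This median was -0.03 with normexp and loess, and leaving out 1 array moved it between -0.29 (without replicate 4) and -0.0041 (without replicate 2). It was -0.21 for the 5 genes well above background in both channels on every array. A summed signal counts the brightest probes most and can differ from the median. That of the 7 genes went the other way, with 26654 to 33809 under follistatin and 18674 to 22805 without, ranges that did not overlap. Col2a1, of cartilage, was at 0.54 (SE 0.17, limma adjusted p = 0.166) and Col19a1, made briefly in developing muscle, at -0.68 (SE 0.19, limma adjusted p = 0.141), each of 1 sign on all 4 arrays. Col22a1, of the muscle-tendon junction, was at -0.23 (limma adjusted p = 0.544). At an unadjusted p under 0.05, 1 was higher and 1 lower, and Col27a1, Col9a1 and Col9a3 did not pass the filter.

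Of the genes for procollagen folding and modification, 14 of 20 tested had a mean ratio above 0, with a median of 0.36 that was 0.72, 0.22, 0.39 and -0.29 on replicates 1 to 4. The median was 0.14 without replicate 1 and 0.19 with normexp and loess. At an unadjusted p under 0.05, 5 were higher and 0 lower, against 9.93% and 10.8% of all tested probes. Fkbp10, a collagen chaperone of the endoplasmic reticulum, was at 0.63 (limma adjusted p = 0.164), its relative Fkbp14 at 0.50 (limma adjusted p = 0.203) and the prolyl 3-hydroxylase P3h2 at 0.56 (limma adjusted p = 0.218). Below 0 were 6 of the 20, among them Pdia3 at -0.37, Serpinh1 at -0.32 and P4ha1 at -0.34, the last on all 4 arrays. The summed signal of the list was 292060 to 435714 with follistatin and 349180 to 502572 without, so the channels overlapped. Of the genes for processing and crosslinking, 8 of 12 were above 0, with a median of 0.19 that was 0.05 without replicate 1 and 0.09 with normexp and loess. Of these 12, 2 were higher and 0 lower at that unadjusted p, which is near the share of all tested probes. Bmp1, which removes the C-terminal propeptide, was at 0.73 (limma adjusted p = 0.178), the lysyl oxidase relative Loxl3 at 0.62 (limma adjusted p = 0.193) and Adamts2, which removes the N-terminal propeptide, at 0.38 (limma adjusted p = 0.268).

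Among the proteoglycans and other partners that bind fibrils, 12 of 15 tested genes were above 0, with a median of 0.43 and 5 higher and 0 lower at an unadjusted p under 0.05. The median was 0.26 without replicate 4 and 0.27 with normexp and loess. Fibronectin, Fn1, on which collagen fibrils are laid down, was at 1.13 (SE 0.29, limma adjusted p = 0.129), the matrix adaptor Matn2 at 0.67 (limma adjusted p = 0.131) and Thbs2, which affects fibril shape, at 0.55 (limma adjusted p = 0.185). All 3 were higher on 4 of 4 arrays. Of the collagen receptors, 4 of 8 were above 0 and 4 below, 2 in each direction at that unadjusted p, with a median of -0.02 that was 0.03 with normexp and loess, 0.27 for the 7 genes well above background in both channels on every array, and -0.17 without replicate 4. Itga1, the collagen-binding integrin alpha chain, was at -1.09 (SE 0.20, limma adjusted p = 0.102), lower on all 4 arrays. Its partner Itgb1 was at 0.49 (limma adjusted p = 0.220), and the fibrillar collagen receptor Ddr2 at 1.12 with replicate 4 at -0.12 (limma adjusted p = 0.148). Of the collagen-cleaving proteases and their inhibitors, 10 of 13 were above 0, with a median of 0.40 and 5 higher and 0 lower at that unadjusted p. The median was 0.19 with normexp and loess. Mmp13, a collagenase, was at 1.33 (limma adjusted p = 0.137), Mmp3, which activates collagenases, at 0.99 (SE 0.21, limma adjusted p = 0.109) and the lysosomal protease Ctsb at 0.62 (limma adjusted p = 0.140).

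**Figure D4:**
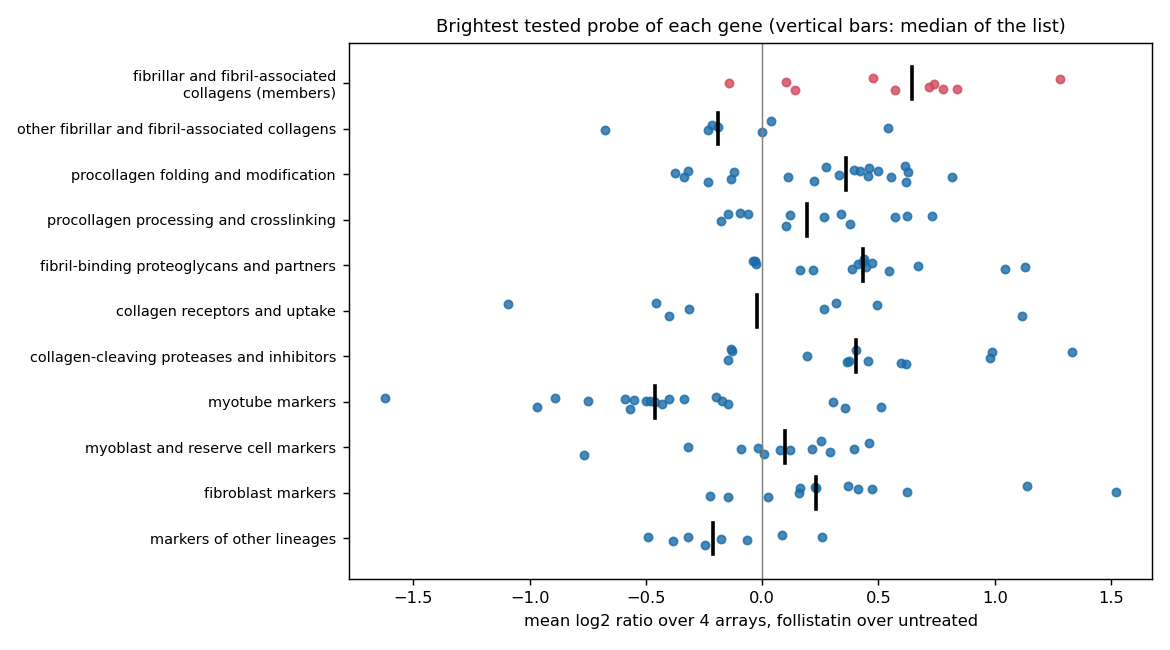
Mean log2 ratio over 4 arrays of the brightest tested probe of each gene (points), by list, with the list's median as a vertical bar. The 10 fibrillar and fibril-associated collagens have a median of 0.64, the other collagens of these classes -0.19 and the myotube markers -0.46.

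Genes used as markers of muscle and other cell types were read from the same fit, and 0 of them passed the test. The cultures were of 1 myoblast line, so signal of a marker does not show that its cell type was present. Of 19 tested myotube markers, 16 had a mean ratio below 0 and 3 above, with a median of -0.46 that was -0.12, -0.52, -1.09 and -0.22 on replicates 1 to 4. At an unadjusted p under 0.05, 6 were lower and 0 higher, against 10.8% and 9.93% of all tested probes. With replicates 1 and 4 alone the median was -0.0011. Their summed signal ranged from 2002985 to 2916747 with follistatin and from 3430636 to 3934081 without. Tnnc2 was at -0.89 (limma adjusted p = 0.107), Ttn at -0.97 (limma adjusted p = 0.151) and Myh4 at -0.50 (limma adjusted p = 0.172). The collagen medians on replicates 1 to 4 were 0.85, 0.40, 0.54 and 0.50, and their relation to the myotube medians was not tested.

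Of 13 tested genes listed as fibroblast markers, 11 were above 0 and 2 below, with a median of 0.23 and 3 higher and 0 lower at that unadjusted p. Those below were Osr1 at -0.22 and Tcf4 at -0.15, which encodes an E protein and is not specific to fibroblasts. The median was 0.50, 0.19, -0.18 and 0.75 on replicates 1 to 4, 0.38 without replicate 2 and 0.12 without replicate 4. Their summed signal ranged from 467147 to 740269 with follistatin and from 432000 to 627348 without, so the channels overlapped. Dpt, a matrix protein that binds decorin and collagen, was at 1.52 (SE 0.16, limma adjusted p = 0.102) and Fap, a protease of activated fibroblasts, at 1.14 (SE 0.18, limma adjusted p = 0.102), both higher on all 4 arrays. Col6a3, of the type VI collagen around fibres, was at 0.62 (limma adjusted p = 0.187). Thy1 and Tcf21 did not pass the filter, and Dcn, Lum and Postn were also counted among the fibril-binding partners. Myoblast and reserve cell markers had 8 of 12 genes above 0 and a median of 0.10, whose sign rests on replicate 1: it was 0.48 on that array, -0.10, -0.01 and -0.16 on the others, and -0.09 without it. Their summed signals were 189517 to 246055 with follistatin and 128430 to 236772 without. Id1 was at -0.77, Pax7 at -0.32 and Vcam1 at 0.29, with limma adjusted p of 0.203, 0.375 and 0.381. Of 17 markers of endothelial, blood, epithelial, neural and fat cells, 9 did not pass the filter, among them Pecam1, Ptprc and Adipoq, and the 8 tested had a median of -0.21, which was -0.01 with normexp and loess, -0.07 for the 5 well above background in both channels on every array, and -0.14 without replicate 4. The glial Gfap was at -0.49, the neuronal Tubb3 at -0.38 and the T cell gene Cd3e at -0.32, with limma adjusted p of 0.278, 0.281 and 0.315. The sum of that list was 3222 to 3874 with follistatin and 4071 to 4887 without. Whether the make-up of the cultures had a part in the collagen ratios was not tested.

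The genes most like the collagens in pattern were found by the root-mean-square difference between their 4 ratios and the collagen median on each array. Of 13916 named genes compared, 105 lay within 0.2. The nearest were Nr2c2ap at a difference of 0.05, Anapc16 at 0.07, and Prrc2b, Myl12b and Cd164, each at 0.08. Their mean ratios ran from 0.52 for Myl12b to 0.62 for Nr2c2ap and Cd164. With 4 arrays, of which 2 resemble each other, such likeness is a description of these arrays.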

How the data were processed

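Per the labels, RNA of 4 pairs of cultures was amplified, labelled and hybridised. The authors read spot intensity from the scans with Feature Extraction (Agilent), 10.7.3.1 in the submitters' processing notes and 10.10.1.1 for replicate 4 per the file headers. The deposited processed intensities are background-subtracted and dye-normalised within each array by that software. The deposited log10 ratio was read only to settle direction. The authors' deposited log2 table matched the log2 ratio of these intensities (r = 1, slope 1 over 41174 probes), with column medians of -0.16, 0.17, 0.13 and 0.11.

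Log2 ratios of the processed intensities were computed here without further centring. Left out were control spots (1639 of 45018) and those that the software marked as outliers; repeated spots were averaged per probe. Probes entered the test with signal well above background on 3 or more arrays of 1 channel. The ratio was tested against 0 with limma 3.58.1 (lmFit, eBayes) in R 4.3.3 and adjusted by Benjamini-Hochberg over 27017 probes at 0.05. A gene was represented by its brightest tested probe. Names were updated through RefSeq (GRCm38.p6), 27479 probes by accession and 6157 by symbol or synonym; the other 7538 kept the name in the file or had none. Alternatives covered background correction, normalisation, filters, slide, array weights and each array left out.

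All 10 collagens are named, and of every other list at least the 3 genes of smallest p, with the 5 genes nearest in pattern. The members and lists were chosen with earlier results of these data known.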

Additional observations from a re-analysis of the deposited data

Results flagged for a closer look

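Of 60 groups of 4 array values examined, 3 held an array far from the others by Dixon's criterion, which chance gives in about 1 in 20 groups. None was a fibrillar or fibril-associated collagen. The median log2 ratio of the fibril-binding proteoglycans and partners was 0.03 on replicate 3, against 0.44, 0.43 and 0.38 on replicates 1, 2 and 4. The median of the collagen-cleaving proteases and inhibitors was 0.83 on replicate 4, against 0.38, 0.45 and 0.37 on replicates 1 to 3. Mmp3 stood at 0.37 on replicate 3, against 1.17, 1.18 and 1.23 on the other arrays.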

How the results depend on the processing

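The count of probes past the adjusted threshold depended on the setting: 2 as reported, 0 with normexp and loess on median signals, 0 with signal well above background required in both channels on every array, 0 with replicates 2 and 3 averaged, 0 with replicates 1 and 4 alone (chosen after seeing the data) and 0 with any 1 array left out. Estimated array weights gave 6769, with weights of 0.52, 2.16, 1.95 and 0.46 for replicates 1 to 4. Like the fit reported above, that setting treats replicates 2 and 3, which resemble each other, as independent. With replicates 2 and 3 averaged, the lowest limma adjusted p of a collagen probe was 0.267, where it was 0.102 as reported. The methods' test gave 2423 unadjusted with a 1.6-fold minimum, 5 of them collagen probes, and 3 after Benjamini-Hochberg adjustment, 0 of them collagen probes. Collagen probes past the threshold numbered 6 with array weights (brightest probes of Col3a1, Col5a2, Col5a3, Col14a1 and Col16a1 among them) and 0 under the 13 other alternatives. Higher at an unadjusted p under 0.05 were 7 to 9 of them, a count chosen after seeing the data. Higher on every array were 9, with alternatives from 8 (well above background in both channels) through 10 (replicates 2 and 3 averaged; without replicate 3) and 11 (without replicate 2) to 14 with replicates 1 and 4 alone (2 arrays only). The median over the 10 genes was 0.64, between 0.55 and 0.71 with 1 array left out, and 0.35 with all tested probes of a gene averaged, where Col1a1 was at 0.34, Col1a2 at 0.16, Col3a1 at 0.23, Col5a3 at 0.35 and Col12a1 at 1.35. Of the 10 ratios, 2 reversed in 1 alternative each: Col1a1 to -0.0376 without replicate 1 (its highest value with 1 array left out was 0.28, without replicate 3, and over all alternatives 0.35, with replicates 1 and 4 alone) and Col5a1 to -0.0421 with array weights. The causes were not tested. The myotube marker median was -0.0011 with replicates 1 and 4 alone. The ratio within each array is itself the paired comparison, and the methods' test above is the unpaired one. Faint probes near the background, such as the lower Col12a1 and Col5a3 probes, limit the precision of their ratios.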
